A study of Mus musculus with 16 samples.

Results

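Hearts that overexpress ERBB2 (OE) were compared with wild-type (WT) hearts after a myocardial infarction (MI), to ask which transcripts differ between the genotypes in injured tissue. The comparison rests on 8 of the 16 mouse heart libraries of the study, 4 OE and 4 WT, each from 1 animal per the labels. In all of these animals the left anterior descending coronary artery had been tied off permanently, and the heart RNA was taken 2 weeks later, at an age of about 3 months. The other 8 libraries, 4 OE and 4 WT hearts after sham surgery, entered the estimate of the spread and one test of whether the infarct changes the genotype difference. Genes were kept when their normalized read number was 10 or more in at least 4 of the 16 libraries, which left 14298 of 24421. This rule uses levels over all groups and not the difference. Just inside it lay Gkn3, Tubb1 and Gm12409, whose 4th highest value was 10.03, and just outside it 9430083A17Rik, Pnldc1 and Gdf7 at 9.87. It was met through a single group by 3 genes, 2 through the WT sham and 1 through the OE infarcted hearts.

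ERBB2 is a receptor tyrosine kinase that binds no ligand itself and signals in dimers with the neuregulin receptors ERBB3 and ERBB4 or with EGFR. Downstream of it, the kinase ERK switches on immediate-early and ETS transcription factors together with the Sprouty, Spred and dual-specificity phosphatase genes that dampen ERK, and the coactivator YAP works with TEAD factors on genes of the cytoskeleton, matrix and growth. Adult cardiomyocytes have largely left the cell cycle, burn fatty acids in abundant mitochondria and express adult contractile and calcium-cycling genes. In young or dedifferentiating heart muscle, natriuretic peptides and cell-cycle genes are more active. In published mouse models of cardiac ERBB2 overexpression, an activated ERBB2 is switched on in cardiomyocytes through the Myh6 promoter under tetracycline control. The labels used here state no promoter, cell type, strain, sex or duration of overexpression, so the cells that carry the transgene are not given.

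The genotypes also differed in features of the libraries. Recovered reads ran from 12747697 to 14297128 in the WT infarcted and from 14998464 to 17468914 in the OE infarcted hearts, without overlap. Defining cardiomyocyte transcripts were abundant in every library, with the 12 markers together at 75485 to 78115 CPM (reads scaled to the library total) in WT and 54857 to 62716 CPM in OE infarcted hearts. Sftpc, the lung surfactant protein C gene, had 3, 4595, 1092 and 3815 reads in WT infarcted replicates 1 to 4 and 6, 3520, 1185 and 0 in OE infarcted replicates 1 to 4. Rag1, a recombinase gene of developing thymocytes, had 0, 5, 5 and 2 reads in the WT and 332, 0, 456 and 184 in the OE infarcted hearts. All sham libraries held at most 4 reads of either gene. Summed over Sftpc, Sftpb, Sftpa1 and Sftpd, lung transcripts stood at 0.235, 525, 114 and 434 CPM in the WT and 0.687, 334, 123 and 0.183 CPM in the OE hearts. Summed over Rag1, Rag2, Ptcra and Dntt, thymocyte transcripts stood at 0.392, 0.36, 0.629 and 0.292 CPM in the WT and 28.7, 0.172, 49.4 and 16.9 CPM in the OE hearts. High lung sums were thus found in both genotypes and high thymocyte sums in OE replicates 1, 3 and 4 alone. OE replicate 2 had no Rag1 reads and a thymocyte sum near 0, but a high lung sum, so that no OE infarcted heart was low in both. The Y-linked gene Ddx3y was high in WT replicates 1 and 3 and in OE replicate 4, at 1132, 0, 1259 and 0 reads in WT and 0, 0, 0 and 1527 in OE hearts, and Xist was high in the other 5. Each result below was therefore also computed with the log2 levels of the lung and thymus sums as terms, and against OE replicate 2 alone. Exact Poisson 95% intervals, which cover counting error only, ran from 4463 to 4730 reads for Sftpc in WT replicate 2 and from 415 to 499.8 for Rag1 in OE replicate 3. A count of 0 allows up to 3.69 reads by the same method. The 14 skeletal muscle markers summed to 316, 137, 50.7 and 76 CPM in WT infarcted hearts. In OE infarcted hearts they summed to 251, 94.8, 63.1 and 48.7 CPM, and no term was fitted for them.

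**Figure D1:**
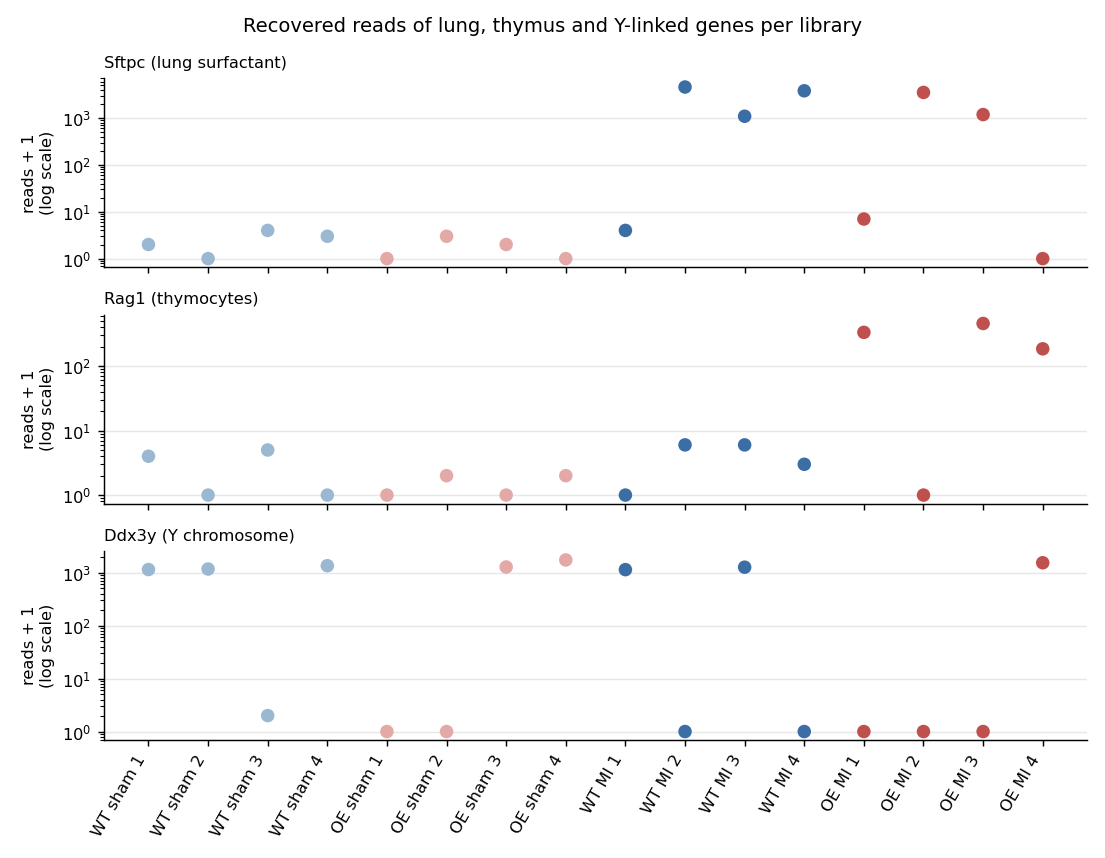
Recovered reads plus 1 (log axis) of Sftpc, Rag1 and Ddx3y in each of the 16 libraries, 1 point per heart. Sftpc stood at 1092 reads or more in 5 infarcted hearts of both genotypes, Rag1 at 184 reads or more in OE infarcted replicates 1, 3 and 4 alone, and Ddx3y was high in 3 of the 8 infarcted hearts.

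Of the 14298 genes, 2218 (15.5%) were higher and 2336 (16.3%) lower in OE than in WT infarcted hearts at a Benjamini-Hochberg adjusted p below 0.05 in limma, together 4554 (31.9%). At least a 2-fold difference was reached by 495 of the higher and 461 of the lower genes. The 4 OE and the 4 WT libraries did not overlap for 1855 genes that were higher (13%) and 1949 that were lower (13.6%). With lung and thymus terms, 730 genes (5.11%) passed as higher and 1027 (7.18%) as lower, of which 698 and 992 also passed without the terms. The thymus term is high in OE infarcted hearts alone, so it overlaps with the genotype contrast, and the part of each in the calls that were lost cannot be told apart. Among the 4554 genes, 4492 had the same sign in OE replicate 2 alone, which holds no Rag1 reads. The sign was also shared by 4544 within both the hearts with over and those with at most 10 Sftpc reads. For hearts with over and at most 100 Ddx3y reads the number was 4549. These subsets reuse the hearts by which the genes were called, so a shared sign was favoured in advance and is no independent check. The deposited table of the authors called 4541 genes, 2215 higher and 2326 lower, and 4369 passed in both. In whole hearts, fewer cells of a type and less RNA per cell cannot be told apart. Values below are normalized reads, in the order of replicates 1 to 4, log2 fold changes are OE minus WT on the log2(value + 1) scale, SE is their standard error, and adjusted p is from limma.

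Among the ERBB receptors and their ligands, Erbb2, Egfr and the EGFR ligand genes Hbegf, Ereg and Tgfa were higher in OE infarcted hearts, and Erbb4 and the EGFR ligand gene Egf were lower. Erbb2 stood at 222, 276, 204 and 307 in WT and 793, 1105, 1808 and 2504 in OE infarcted hearts. The OE hearts did not overlap the WT hearts, but ranged widely among themselves, with replicates 3 and 4 high. The log2 fold change was 2.50 (SE 0.33, adjusted p = 5.53e-05), and 111 ± 51.3 against 16.7 ± 3.67 CPM (SD, n = 4 each) gave an exact two-sided permutation p of 0.0286, the smallest this design allows. Of 12 tested ERBB receptors and ligands, 5 rose, 2 fell and 5 did not pass (median 0.31, or 0.48 without WT replicate 2, against 0.01 over all tested genes), and 2 rose and none fell with lung and thymus terms. Hbegf encodes the heparin-binding EGF-like growth factor, a ligand of EGFR and ERBB4. It stood at 463, 548, 647 and 333 in WT and 1269, 960.3, 2909 and 2297 in OE hearts, all 4 OE hearts above all WT hearts and again replicates 3 and 4 highest (log2 fold change 1.80, SE 0.29, adjusted p = 0.000238). Ereg, which encodes the ligand epiregulin, rose as well (2.43, adjusted p = 0.00546), although the groups overlapped. Egfr, the EGF receptor gene, differed by 0.62 and Tgfa, the TGF-alpha gene, by 0.55. The Egfr call was lost without OE replicate 3 or 4 or WT replicate 1 or 4, and the Tgfa call without any 1 of OE replicates 1, 3 and 4 and WT replicates 1, 3 and 4 (highest adjusted p 0.0918 and 0.132). Egf, the epidermal growth factor gene, stood at 236, 92.1, 134 and 172 in WT and 47.9, 77.2, 37 and 107 in OE hearts with overlap (-1.26, adjusted p = 0.0136, and 0.0535 without OE replicate 3). Erbb4, the neuregulin receptor, fell by 0.76 on the log2 scale (SE 0.17, adjusted p = 0.00287), and Erbb3, its relative, ran from 98.7 to 225 over both groups with an adjusted p of 0.224. With lung and thymus terms, Erbb2 (2.36, adjusted p = 0.00646) and Hbegf (1.11, adjusted p = 0.0299) passed and Erbb4 (adjusted p = 0.186), Egf (adjusted p = 0.184) and Ereg (adjusted p = 0.274) did not.

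Genes that ERK induces were higher in OE infarcted hearts. Of 23 tested ERK feedback and ETS target genes, 16 rose, none fell and 7 did not pass (median 0.86), and 8 rose with lung and thymus terms. Spry4, a Sprouty inhibitor of receptor tyrosine kinase signalling, stood at 200.0, 173, 236 and 201 in WT and 447, 443, 495 and 1010.4 in OE hearts. Every OE heart lay above every WT heart, and replicate 4, which had the most Erbb2, stood apart, though a relation to the Erbb2 level was not tested. The log2 fold change of Spry4 was 1.47 (SE 0.22, adjusted p = 0.000162). Phlda1, a pleckstrin-homology gene induced by ERK, showed 534, 329, 474 and 752 in WT and 1283, 1739.7, 1719 and 1661 in OE hearts, with replicate 2 the highest of the OE hearts (log2 fold change 1.67, SE 0.21, adjusted p = 3.31e-05, and 0.00214 with the terms). Spred1, another ERK inhibitor, rose by 0.81 with little spread among the OE hearts (966, 946, 961 and 1069, against 553, 503, 545 and 654 in WT). Among the transcription factors, Etv5 rose by 1.09 (adjusted p = 0.000254) and Etv4 by 2.80 (adjusted p = 0.00115, and 0.107 with the terms), and Egr1 rose from 235, 259, 673 and 384 to 1118, 1348, 4352 and 6746. Etv5 is also on the lung marker list and was the single member of that list to pass. Egr2 followed at 24.1, 23, 60.9 and 31.6 in WT and 169, 152, 255 and 1286 in OE hearts, a log2 fold change of 3.20 that dropped to 2.50 without OE replicate 4. The dual-specificity phosphatase genes Dusp4 (2.06) and Dusp6 (0.83) rose too, and neither passed with the terms (adjusted p = 0.0512 and 0.216). Of 20 immediate-early and heat shock genes, 5 rose and 15 did not pass (median 0.50), the risers being Egr1, Egr2, Egr3, Ier2 and Nr4a1, and 3 passed with the terms. The Nr4a1 call was lost without OE replicate 3 or 4 or WT replicate 4 (highest adjusted p 0.066). The median of that list was 0.31 without OE replicate 4, 0.33 without WT replicate 1, 0.77 without WT replicate 3 and -0.02 in OE replicate 2 alone.

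**Figure D2:**
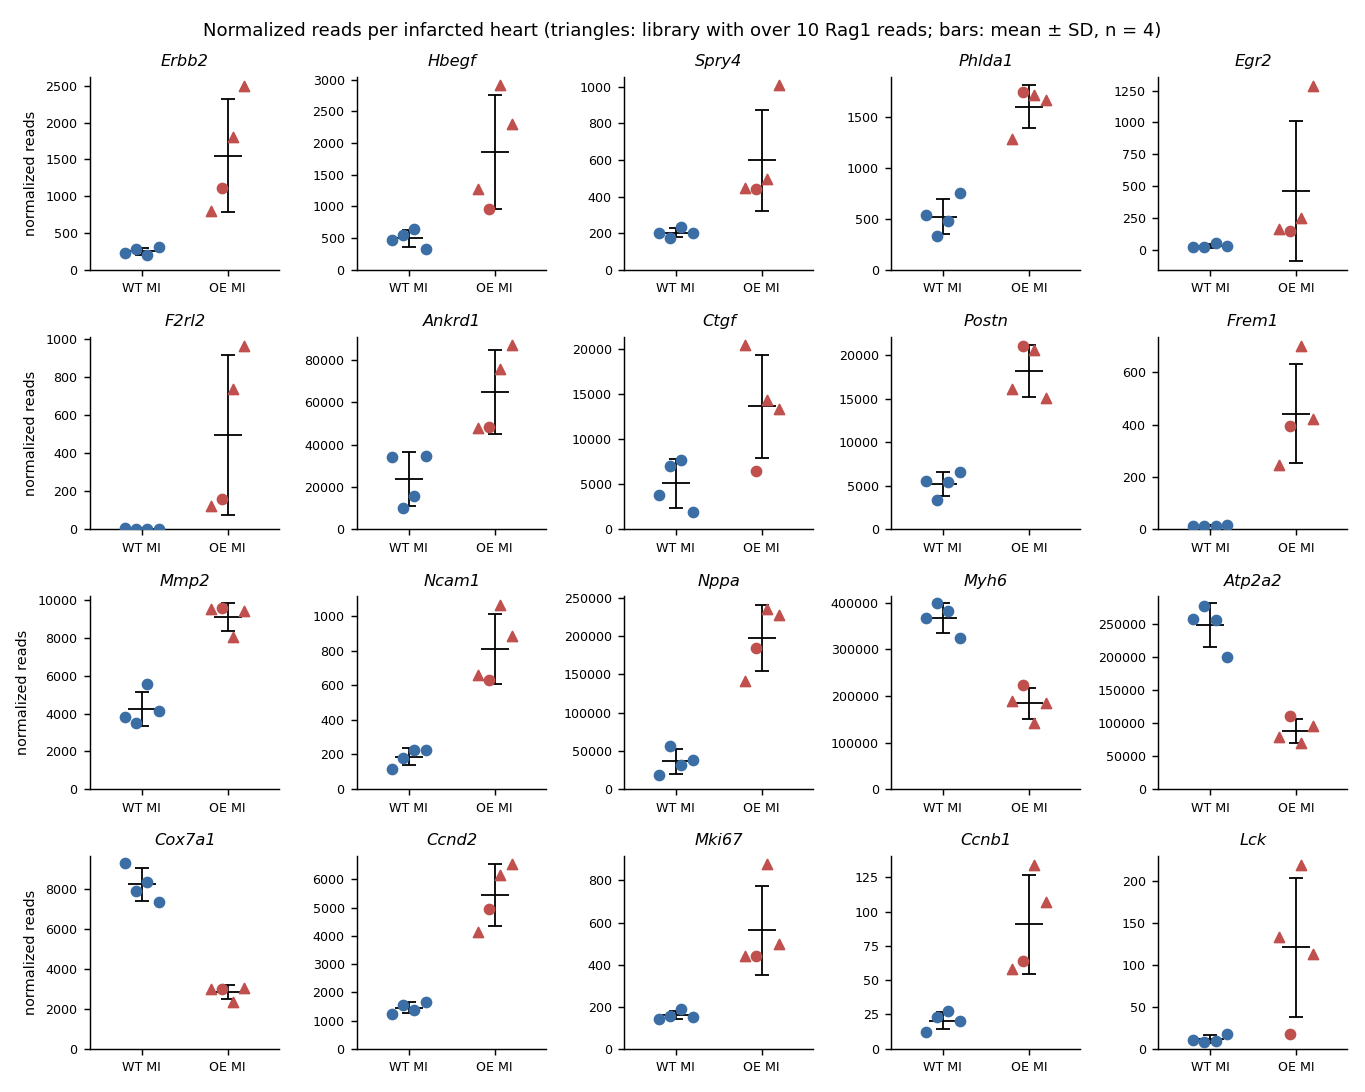
Normalized reads of 20 genes in the 4 WT and 4 OE infarcted hearts, 1 symbol per heart (triangles mark libraries with over 10 Rag1 reads), with the mean and SD. The groups overlapped for Ctgf, and for Lck OE replicate 2, with 0 Rag1 reads, lay level with the highest WT heart. In the other 18 panels the OE hearts lay apart from the WT hearts.

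The YAP and TEAD target list did not move as a body. Of its 26 genes, all tested, 5 rose (19.2%), 2 fell (7.69%) and 19 did not pass, against 15.5% rising and 16.3% falling over all genes. The median was 0.14, or 0.06 without OE replicate 1 or WT replicate 4. Ankrd1, a titin-binding ankyrin repeat gene of stressed heart muscle and a YAP target, stood at 34315, 10199, 16003 and 34782 in WT and 47719.7, 48461, 75736 and 87183 in OE infarcted hearts. The groups did not overlap, and OE replicates 3 and 4 were highest (log2 fold change 1.57, SE 0.34, adjusted p = 0.0023). Ctgf, the matricellular connective tissue growth factor, stood at 3799.7, 7067, 7709.6 and 1909.6 in WT and 20446, 6534, 14325 and 13319.8 in OE hearts, and OE replicate 2 lay within the WT range (log2 fold change 1.50, adjusted p = 0.0106). Its relative Cyr61 overlapped, at 1688, 1496, 2675 and 805 against 2212, 907, 2232 and 2212, with an adjusted p of 0.712. Tgfb2, a TGF-beta ligand gene that went from 392, 237, 350.1 and 491 to 692, 645, 824 and 706 (adjusted p = 0.000739), Fjx1 (1.69) and the receptor tyrosine kinase gene Axl were the other risers. Amotl2, a YAP-binding angiomotin, fell by 0.41 on the log2 scale, and F3, the tissue factor gene, fell by 0.59 on the log2 scale. The Amotl2 call was lost without WT replicate 1, 2 or 3 or OE replicate 3 or 4 (highest adjusted p 0.0873) and the F3 call without any 1 of 7 libraries, all but OE replicate 2 (highest adjusted p 0.121). With lung and thymus terms 1 gene of the list passed, Tgfb2 (adjusted p = 0.0418), Ankrd1 had an adjusted p of 0.0591, and the list's median was -0.06.

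The upstream 250 bases of Ankrd1 and Cyr61 are shown because both genes are standard readouts of YAP and behaved differently here. They come from RefSeq's windows on GRCm38.p6, both on the minus strand, 5′ to 3′, at chr19:36119845-36120094 and chr3:145649986-145650235, where Cyr61 is listed as Ccn1. Capitals mark GGAATG, the core of the TEAD motif, or its reverse complement.
Ankrd1: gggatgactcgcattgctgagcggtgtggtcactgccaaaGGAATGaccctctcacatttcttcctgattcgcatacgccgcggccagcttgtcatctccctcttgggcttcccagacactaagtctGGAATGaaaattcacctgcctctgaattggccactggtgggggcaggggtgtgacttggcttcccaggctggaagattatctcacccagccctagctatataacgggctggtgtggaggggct
Cyr61: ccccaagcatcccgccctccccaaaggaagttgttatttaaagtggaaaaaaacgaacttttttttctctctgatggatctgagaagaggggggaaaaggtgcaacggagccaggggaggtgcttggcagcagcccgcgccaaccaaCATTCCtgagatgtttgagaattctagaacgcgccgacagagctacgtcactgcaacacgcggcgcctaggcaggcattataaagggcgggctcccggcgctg
GGAATG lies at bases -210 and -123 of the Ankrd1 window and at -103 of the Cyr61 window, counted to the start site. On either strand it was found in 7 of the 18 list genes with a window, and in 12.6% of 27025 gene windows of the same length. A match is a description of letters and not a bound site.

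The 8 largest rises and the 8 largest falls were taken among genes with a mean of at least 100 in the higher group that also passed with lung and thymus terms and whose groups did not overlap. They belonged to no single list. F2rl2, the gene for the thrombin receptor family member PAR3, was almost silent in WT infarcted hearts, at 6.03, 4.39, 3.26 and 4.21, and stood at 123, 157, 735 and 963 in OE hearts. OE replicates 3 and 4, which had more Erbb2 than replicates 1 and 2, held over 4 times the F2rl2 of the other 2 (log2 fold change 5.99, SE 0.70, adjusted p = 1.66e-05). A relation to the Erbb2 level was not tested. Ifi27l2b, an interferon-inducible gene, was likewise highest in OE replicates 3 and 4, at 84.1, 64.7, 189 and 277 in OE against 0, 5.48, 2.17 and 8.43 in WT hearts. Its log2 fold change of 5.13 was 4.50 without WT replicate 1. Frem1, an extracellular matrix gene of basement membranes, went from 13.3, 13.2, 14.1 and 17.9 to 247, 394, 699.8 and 421, with the smallest adjusted p among the 8 largest rises, 4.06e-07 (log2 fold change 4.73, SE 0.29). Add2, the beta-adducin gene (3.64), Serinc2 (3.18), Thbs4, the matricellular thrombospondin-4 gene (3.10), Egr2 and Egr3 (3.03, and 2.41 without OE replicate 4) completed the 8 largest rises. Of the falls, Adra1a, the alpha-1A adrenergic receptor gene, dropped from 622, 442, 528 and 163 to 56.3, 39, 22.2 and 50.2 (log2 fold change -3.28, SE 0.43, adjusted p = 4.76e-05). Lrtm1, a leucine-rich repeat membrane gene, was the most abundant of the falling genes, at 7102, 5949.6, 10326 and 3947 in WT and 824, 1344, 458 and 901 in OE hearts (-2.97, adjusted p = 1.17e-05). Lgi1 (-3.22), Efnb3, an ephrin ligand gene (-3.21), the chloride channel gene Clcn1 (-3.19), Lrrc15 (-3.07) and the sugar enzyme genes Pfkfb1 (-3.10) and Fbp2 (-2.95) were the remaining falls.

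Extracellular matrix transcripts were higher in OE infarcted hearts, with collagens, cross-linking enzymes and basement membrane chains all represented. Of 34 fibrillar matrix and cross-linking genes, 28 rose, none fell and 6 did not pass (median 1.06), and 15 rose with lung and thymus terms. Postn, which encodes the matricellular protein periostin, stood at 5563, 3366, 5434 and 6648 in WT and 16126, 21012, 20531 and 15069 in OE hearts. The OE hearts were all above the WT hearts, by 1.82 on the log2 scale (SE 0.19, adjusted p = 7.95e-06, and 0.000788 with the terms). Col6a3, a collagen VI chain, rose from 1169, 1258, 1497 and 1696 to 3953, 4299, 4866 and 3939.6 (1.61, SE 0.17, adjusted p = 7.51e-06). Col1a1, the main fibrillar collagen chain, varied more in WT hearts, at 7363, 5204, 15327 and 12819.8, against 23337, 22274, 20346 and 15503 in OE hearts, and its lowest OE value was just above the highest WT value (1.11, adjusted p = 0.00495, and 0.0766 with the terms). Loxl2, a lysyl oxidase-like cross-linking enzyme gene, rose by 1.37 (SE 0.22, adjusted p = 0.000307). Of 19 basement membrane genes, 13 rose, 0 fell and 6 did not pass (median 0.51), with Frem1 and type IV collagen and laminin chains among the risers, and 11 rose with the terms.

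Genes tied to epithelial-to-mesenchymal transition (EMT) and invasion counted 19 up, none down and 9 not passing of 28 (median 0.79), with 9 up when the terms were added. Of these risers, Lox, Loxl1, Loxl2 and Tnc are also on the fibrillar matrix list. Mmp2 and Mmp14 are also on the protease list and Itgav and Itga5 on the integrin list, so the counts of these lists are not independent. Ncam1, the neural cell adhesion molecule gene, went from 118, 181, 227 and 225 to 661, 632, 1065 and 882 (log2 fold change 2.12, SE 0.22, adjusted p = 6.74e-06). The matrix metalloprotease gene Mmp2 went from 3823, 3504, 5559.8 and 4136 to 9528, 9571, 8039 and 9433 (1.12, SE 0.13, adjusted p = 1.78e-05), and its membrane-bound activator Mmp14 rose by 1.26 (adjusted p = 0.000516). For these 3 genes no OE heart overlapped a WT heart. Vim, the vimentin gene, rose by 0.36 with overlapping groups (adjusted p = 0.0132, and 0.0734 with the terms), and Runx1, a transcription factor gene of dedifferentiation, had an adjusted p of 0.612. Matrix proteases and their inhibitors split into 8 up, 2 down and 17 not passing of 27 (median 0.18, and 0.06 without OE replicate 1 to 0.32 without OE replicate 2). The falls were Mmp15 (-0.65) and Timp4, an inhibitor gene of heart (-1.25), neither of which passed with the terms (adjusted p = 0.171 and 0.0553), and 5 of the list rose with them. Of 30 integrin and focal adhesion genes, 17 rose, 3 fell and 10 did not pass (median 0.41), but 5 rose and none fell with the terms. Of them, the integrin genes Itgav (0.81, adjusted p = 0.00011) and Itgb5 (0.62, adjusted p = 5.15e-05) rose and the adaptor gene Lims1 fell by 0.37 on the log2 scale (adjusted p = 0.00192).

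Of 13 fibroblast markers, 7 rose, 2 fell and 4 did not pass (median 0.36), and 4 rose and none fell with lung and thymus terms, the risers being mostly matrix genes such as Col6a1 (1.24). Scara5, a scavenger receptor gene of resting fibroblasts, fell by 1.28 on the log2 scale (adjusted p = 0.272 with the terms). Gsn, the actin-severing gelsolin gene, fell by 0.72 on the log2 scale (adjusted p = 0.0144, 0.0519 without OE replicate 3 and 0.108 with the terms). Among 14 markers of activated fibroblasts, 6 rose, 2 fell and 6 did not pass (median 0.61). That median was 0.32 without OE replicate 1, 0.30 without WT replicate 2 and 0.92 without OE replicate 4, and over the 4 OE hearts it ran from 1.53 in replicate 1 to -0.15 in replicate 4. Cilp, a matrix gene of activated fibroblasts, rose from 841, 948, 1395 and 2452 to 4645, 6975, 9135 and 7995 (2.44, SE 0.34, adjusted p = 8.56e-05). Acta2, the smooth muscle actin gene that marks myofibroblasts and is also on the mural and fetal lists, stood at 4113, 6815, 6658 and 5333 in WT and 3122, 2534, 2287 and 1921 in OE hearts, every OE heart below every WT heart (-1.21, SE 0.28, adjusted p = 0.00338, and 0.0397 with the terms). Mural cell markers counted 2 up (Pdgfrb and Cspg4), 3 down (Kcnj8, Abcc9 and Acta2) and 7 not passing of 12. The Kcnj8 call was lost without OE replicate 1 or 3 or WT replicate 1 or 4 (highest adjusted p 0.134).

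Cell-cycle transcripts rose most evenly at mitosis. Of 30 G2/M and cytokinesis genes, 29 rose, 1 fell and all had groups that did not overlap (median 1.55), against 13% and 13.6% of all genes without overlap in the 2 directions. Mki67, the proliferation antigen Ki-67 gene, stood at 143, 157, 189 and 149.6 in WT and 439.9, 439.6, 879 and 498 in OE infarcted hearts. Replicate 3, which had the most Rag1 reads, was highest, and replicate 2, which had none, was level with replicate 1 (log2 fold change 1.76, SE 0.28, adjusted p = 0.000214). Ccnb1, the mitotic cyclin B1 gene, went from 12.1, 23, 27.2 and 20 to 57.9, 63.9, 134 and 107 (2.06, SE 0.36, adjusted p = 0.000512). Aurkb, the kinase gene of the chromosomal passenger complex and cytokinesis, went from 12.1, 28.5, 27.2 and 23.2 to 47.1, 44.4, 88.9 and 54.6 (1.34, adjusted p = 0.00592). Developing thymocytes divide, so values from libraries with few or no Rag1 reads stand beside these. In OE replicate 2 alone the list's median was 1.18, and with the lung and thymus terms it was 1.19 with 18 genes up and none down. In the sham hearts, which hold at most 4 Rag1 reads, the list's median was 1.62 with 29 up and 1 down. Of all 14298 tested genes, 7051 passed in sham hearts. The single fall in the list was Cenpf, a kinetochore gene also found at the nuclear envelope of muscle cells, at 769, 339, 276 and 278 in WT and 117, 203, 193 and 126 in OE hearts (-1.27, adjusted p = 0.00354, and 0.117 with the terms).

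Promoter sequence upstream of 3 of these mitotic genes is shown because 22 of the 26 list genes with a RefSeq window held the CCAAT box, on either strand, within 250 bases before the start, against 34.5% of all 27025 windows. The cell-cycle homology region TTTGAA was held by 8 of the 26, against 16.3%, and both motifs together by the same number, 8, against 5.73%. The last 150 bases before the start, 5′ to 3′ on the minus strand of GRCm38.p6, lie at chr10:69352913-69353062 for Cdk1, the mitotic kinase gene, chr4:118437344-118437493 for Cdc20, an activator of the anaphase-promoting complex, and chr9:70421555-70421704 for Ccnb2, the cyclin B2 gene. Capitals mark both motifs and their reverse complements.
Cdk1: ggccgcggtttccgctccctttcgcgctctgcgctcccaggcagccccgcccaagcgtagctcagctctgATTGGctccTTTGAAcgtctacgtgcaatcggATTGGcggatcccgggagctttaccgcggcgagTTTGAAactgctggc
Cdc20: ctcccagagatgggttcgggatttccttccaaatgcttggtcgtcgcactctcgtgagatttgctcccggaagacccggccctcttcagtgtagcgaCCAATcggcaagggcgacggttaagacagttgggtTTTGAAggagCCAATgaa
Ccnb2: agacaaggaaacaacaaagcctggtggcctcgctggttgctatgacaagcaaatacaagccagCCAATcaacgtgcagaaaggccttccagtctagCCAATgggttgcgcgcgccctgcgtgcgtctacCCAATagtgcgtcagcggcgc
Cdk1 went from 42.2, 34, 54.4 and 30.5 to 104, 85, 183 and 117 (1.56), Cdc20 from 34.9, 65.8, 45.7 and 32.7 to 67.2, 98.2, 158 and 119 (1.27) and Ccnb2 from 16.9, 23, 42.4 and 35.8 to 56.3, 67, 133 and 88.1 (1.52). The 3 rose by similar amounts, with OE replicate 3 the highest heart for each, and the 150 bases of Ccnb2 hold no TTTGAA.

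Genes of DNA replication and of the G1 phase were less uniform than those of mitosis. S-phase and replication genes counted 13 up, 1 down and 14 not passing of 28 (median 0.52), and with the terms none up and 1 down, the dUTPase gene Dut (-0.81, adjusted p = 0.0116). Rrm2, the ribonucleotide reductase subunit gene of S phase, rose from 60.3, 61.4, 55.5 and 47.4 to 123, 95.9, 226 and 179 (1.39, adjusted p = 0.00043, and 0.0533 with the terms). G1 cyclins and CDK inhibitors counted 6 up, 1 down and 10 not passing of 17 (median 0.37), and 2 up and 1 down with the terms. Ccnd2, the cyclin D2 gene that drives entry into the cycle in heart muscle, stood at 1227, 1548, 1362 and 1659 in WT and 4149, 4946, 6166 and 6545 in OE hearts. The lowest OE heart lay over 2-fold above the highest WT heart (log2 fold change 1.90, SE 0.15, adjusted p = 1.12e-06, and 0.000257 with the terms). Ccnd1 rose by 0.92 (adjusted p = 0.000663). Cdkn1c, which encodes the CDK inhibitor p57, fell by 0.87 on the log2 scale (adjusted p = 0.00164), and Cdkn1a, which encodes p21, ranged from 493 to 5513 over the 8 hearts with an adjusted p of 0.255.

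**Figure D3:**
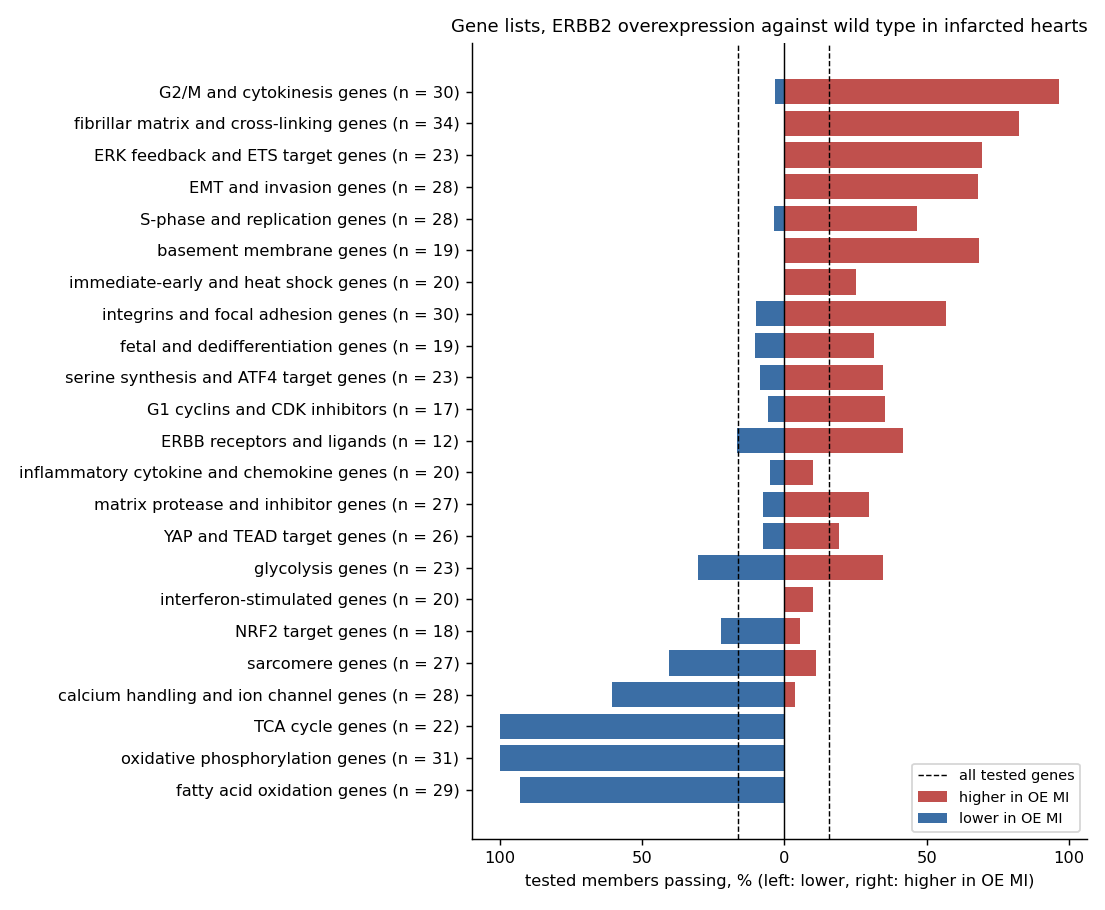
Share of the tested members of 23 pathway lists that passed as higher (right, red) or lower (left, blue) in OE infarcted hearts, with dashed lines at the shares over all tested genes, 15.5% and 16.3%. The TCA cycle and oxidative phosphorylation lists fell whole, and 29 of 30 G2/M genes rose.

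The adult myosin gene Myh6, light chain and troponin I genes and the calcium pump gene Atp2a2 were lower in OE infarcted hearts and the natriuretic peptide genes Nppa and Nppb higher, while 13 of 27 sarcomere genes did not pass and 3 rose. Myh6, the adult myosin heavy chain gene, stood at 366534, 400484, 381368 and 323950.2 in WT and 188265, 222699.5, 141658 and 185739 in OE hearts, with no overlap and OE replicate 3 lowest (log2 fold change -1.01, SE 0.16, adjusted p = 0.000226). Nppa, the atrial natriuretic peptide gene that is active in fetal ventricles, stood at 17937, 56827, 31849 and 37888 in WT and 141534, 184455, 235375 and 227371 in OE hearts. It differed by 2.54 on the log2 scale (SE 0.33, adjusted p = 4.72e-05, and 0.00204 with the terms), and Nppb, its relative, by 1.71 (adjusted p = 0.00392, and 0.188 with the terms). Of the 10 atrial markers, Nppa rose, Kcnj3 fell and the other 8 did not pass. Among these 8, Bmp10 stood at 0, 1879, 488 and 221 in WT and 1621, 712, 94.4 and 1189 in OE hearts. No term for atrial markers was fitted. Of the other hallmark genes of the fetal program, Myh7, the fetal myosin gene (adjusted p = 0.366), and Acta1, the skeletal actin gene (adjusted p = 0.798), did not pass. Fetal and dedifferentiation genes in all counted 6 up, 2 down and 11 not passing of 19 (median 0.41), and 1 up and 2 down with the terms.

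Within the sarcomere list, 3 genes rose, 11 fell and 13 did not pass of 27 (median -0.37), and 1 rose and 6 fell with lung and thymus terms. The light chain genes Myl2 (-1.03, adjusted p = 8.12e-06) and Myl3 (-1.01, adjusted p = 3.86e-05) and the cardiac troponin I gene Tnni3 fell together, Tnni3 from 57602, 63835, 65814 and 58503 to 26524, 30164, 25366 and 31139.5 (-1.12, SE 0.10, adjusted p = 2.77e-06). The risers were Mybpc3, the cardiac myosin-binding protein C gene (0.68, adjusted p = 0.000364), Des, the intermediate filament gene desmin (0.67, adjusted p = 0.00154), and Xirp2, an intercalated disc gene (1.67, adjusted p = 0.00125). With the terms Mybpc3 passed (adjusted p = 0.0221) and Des and Xirp2 did not (adjusted p = 0.0512 and 0.0636). Of the 12 cardiomyocyte markers, 2 rose, 7 fell and 3 did not pass (median -0.44), and 1 rose and 5 fell with the terms.

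Of 28 genes of calcium handling and ion channels, 1 rose, 17 fell and 10 did not pass (median -0.50), and 7 fell with the terms. Atp2a2, the SERCA2 calcium pump gene of the sarcoplasmic reticulum, stood at 257079, 277968, 256642 and 200642 in WT and 78333, 111102, 69468 and 94935 in OE hearts, with the highest OE heart well under the lowest WT heart (log2 fold change -1.50, SE 0.16, adjusted p = 1.06e-05, and 0.00234 with the terms). Its inhibitor gene Pln, phospholamban, fell as well, from 103677, 90698, 90636 and 80133 to 32826, 48723, 27111 and 41538 (-1.31). Kcnip2, a subunit gene of the transient outward potassium channel, fell from 4356, 3019, 2484 and 1721 to 296, 362, 299 and 692 (-2.82, SE 0.36, adjusted p = 3.68e-05), its pore gene Kcnd2 by 1.60 on the log2 scale, and the pacemaker channel gene Hcn4 by 1.56 on the log2 scale. Jph2, the junctophilin gene that ties the T-tubule to the sarcoplasmic reticulum, fell by 0.73 on the log2 scale (adjusted p = 2.89e-06). Ryr2, the calcium release channel gene, fell by 0.43 on the log2 scale (adjusted p = 0.00708, and 0.205 with the terms). The single riser, the calsequestrin gene Casq2, differed by 0.22 at an adjusted p of 0.0492, a call that was lost without OE replicate 3 or 4 or WT replicate 1, 2 or 4 (highest adjusted p 0.136).

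Mitochondrial energy metabolism was the most uniform block of falling genes. Oxidative phosphorylation genes fell in 31 of 31 cases (median -0.79) and TCA cycle genes in 22 of 22 (median -0.73). Of 29 fatty acid oxidation genes, 27 fell, none rose and 2 did not pass (median -1.12). With lung and thymus terms the falls numbered 31, 22 and 24. Cox7a1, the heart isoform of a cytochrome c oxidase subunit, stood at 9296, 7921, 8373 and 7358 in WT and 2987, 2995, 2345 and 3043 in OE infarcted hearts. The highest OE heart, at 3043, lay under the lowest WT heart by more than 2-fold (log2 fold change -1.54, SE 0.10, adjusted p = 6.41e-07, and 8.55e-05 with the terms). Etfb, the beta chain gene of the electron transfer flavoprotein that takes electrons from fatty acid oxidation, fell from 8309, 8227, 8022 and 6637 to 3059, 3443, 2750.3 and 3483 (-1.29, SE 0.10, adjusted p = 1.01e-06). Idh3b, a subunit gene of the TCA cycle's isocitrate dehydrogenase, fell by 0.99 on the log2 scale (adjusted p = 1.61e-06). Cpt1b, the muscle gate of fatty acid entry into mitochondria, fell by 0.72 on the log2 scale (adjusted p = 0.000385), and Cd36, a fatty acid uptake gene of endothelium and muscle, fell by 0.81 on the log2 scale (adjusted p = 0.000169). Ppargc1a, the mitochondrial biogenesis coactivator gene, was scattered, at 2984, 11500.1, 6488 and 1876 in WT and 1063, 1143, 1919.9 and 3009 in OE hearts with overlap (-1.47, adjusted p = 0.0155). Its call was lost without OE replicate 1 and with the terms (adjusted p = 0.0516 and 0.054).

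Glycolysis genes changed in both directions, with 8 up, 7 down and 8 not passing of 23 (median 0.14). Slc2a1, the widely expressed glucose transporter GLUT1 gene, went from 400.1, 369.5, 396 and 332 to 766, 557, 844 and 714 (0.93, SE 0.14, adjusted p = 0.000141). Slc2a4, the insulin-responsive GLUT4 gene of muscle and fat, went the other way, from 8641, 7837, 7749.8 and 7251 to 3452, 5031, 2409 and 3579 (-1.17, SE 0.15, adjusted p = 4.95e-05). Pfkp, the platelet-type phosphofructokinase gene, rose by 1.53 (adjusted p = 0.000274) while the muscle-type Pfkm fell. Of the lactate dehydrogenase chains, Ldha rose by 0.43 (adjusted p = 0.00126, and 0.121 with the terms) and Ldhb, the main heart chain, fell by 0.86 on the log2 scale (adjusted p = 7.77e-06). The lactate exporter gene Slc16a3 rose from 73.5, 82.2, 212 and 105 to 509, 240.1, 648 and 414 (1.97, adjusted p = 0.00031). Eno3, the muscle enolase gene, fell by 0.94 on the log2 scale, Ckm, the muscle creatine kinase gene that buffers ATP, fell by 1.60 on the log2 scale, and Pkm, pyruvate kinase, had an adjusted p of 0.195. With the terms 4 glycolysis genes rose and 6 fell.

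**Figure D4:**
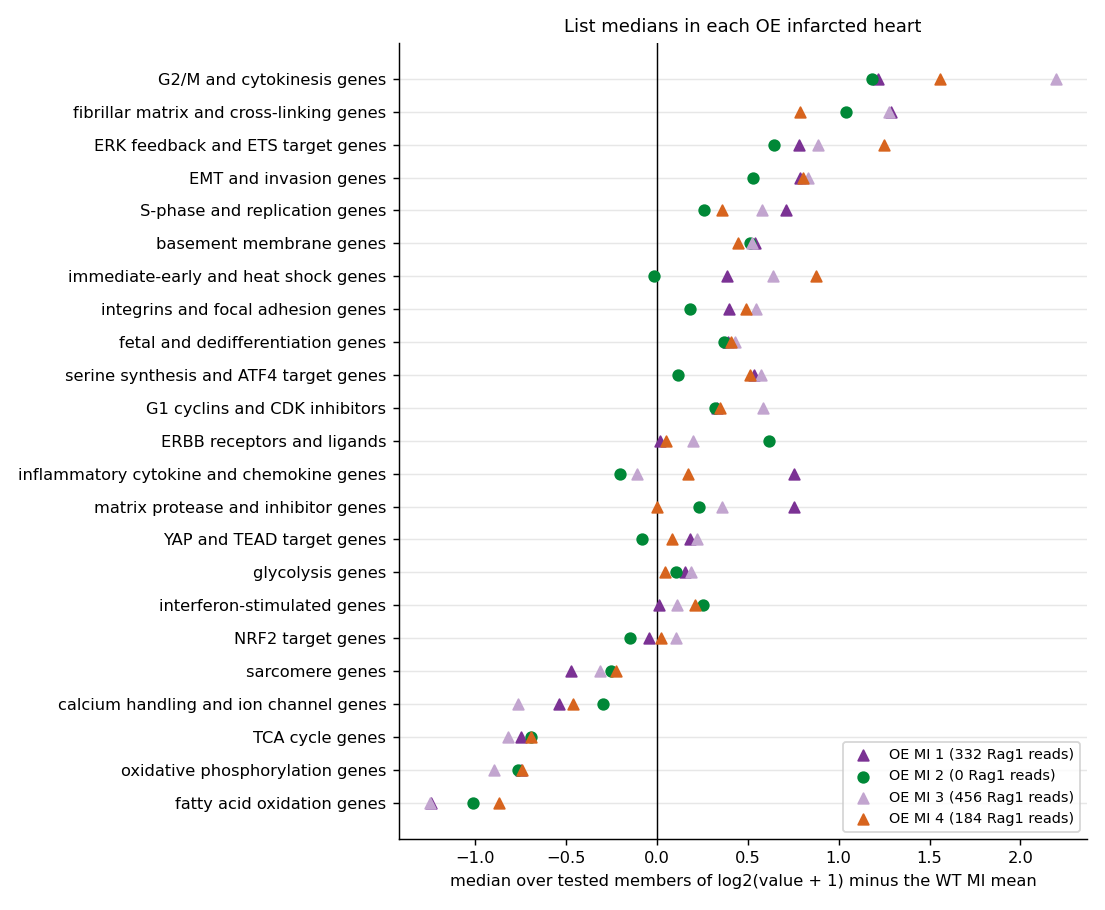
Median over the tested members of each pathway list of log2(value + 1) minus the WT infarcted mean, 1 symbol per OE infarcted heart (the circle is replicate 2, with 0 Rag1 reads). All 4 hearts lay below 0 for the sarcomere, calcium, TCA cycle, oxidative phosphorylation and fatty acid lists and above 0 for the G2/M, fibrillar matrix, ERK, EMT and basement membrane lists.

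Stress and one-carbon genes were mixed. Of 23 serine synthesis and ATF4 target genes, 8 rose, 2 fell and 13 did not pass (median 0.38), with Mthfd2, a mitochondrial folate enzyme gene (1.43, adjusted p = 0.000651), and Pycr1, a proline synthesis gene (1.19, adjusted p = 0.000255), rising and the folate enzyme gene Aldh1l2 falling by 0.83 on the log2 scale. With lung and thymus terms 1 rose and 1 fell, Pycr1 passed (adjusted p = 0.0112), Mthfd2 (adjusted p = 0.0762) and Aldh1l2 (adjusted p = 0.0535) did not, and in OE replicate 2 alone the median was 0.12. Gdf15, the stress-induced TGF-beta family hormone gene, stood at 83.2, 34, 89.2 and 81.1 in WT and 228, 70.9, 805 and 1409.5 in OE hearts. OE replicate 2 lay within the WT range and replicates 3 and 4 far above it (2.44, adjusted p = 0.00947, 1.79 without OE replicate 4 and 3.23 without OE replicate 2). Of 18 NRF2 target genes, which serve antioxidant defence, 1 rose, 4 fell and 13 did not pass (median 0.02, within -0.03 to 0.04 without 1 library), and the glutathione transferase genes Gsta4 (-0.94, adjusted p = 3.86e-05) and Gstm1 (-1.17, adjusted p = 4.53e-05) fell. The riser, the pentose phosphate gene Pgd, differed by 0.25 and was lost without OE replicate 3 or WT replicate 1 (highest adjusted p 0.0533).

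Inflammatory and interferon genes showed few differences between the genotypes. Among 20 inflammatory cytokines and chemokines, 2 rose, 1 fell and 17 did not pass (1 up and none down with lung and thymus terms), and among 20 interferon-stimulated genes 2 rose and 18 did not pass (1 up with the terms), both below the shares over all genes. Cx3cl1, the membrane-tethered chemokine fractalkine gene, went from 263, 209, 299 and 302 to 584, 518, 569 and 686 without overlap (1.14, SE 0.13, adjusted p = 1.43e-05). The stromal chemokine gene Cxcl12 fell by 0.44 on the log2 scale (adjusted p = 0.0411), which was lost without OE replicate 1, 2 or 4 or WT replicate 1 or 4 (highest adjusted p 0.13). Ifit2, an interferon-induced RNA-binding protein gene, rose by 0.53 (adjusted p = 0.0199), lost without OE replicate 2 or WT replicate 2 or 3 (highest adjusted p 0.067). Of 18 macrophage markers none rose and 2 fell (11.1%, below the 16.3% over all genes), 1 with the terms. The falls were Timd4, from 104, 51.5, 90.3 and 87.4 to 37, 40.5, 33.3 and 25.5 (-1.24, adjusted p = 0.000737), and Folr2 (-0.68, adjusted p = 0.00653). The other 16 did not pass, among them Lyve1, Cd163, Mrc1 and Mertk. The median of the macrophage list was -0.08, 0.11 without OE replicate 4 and 0.06 without WT replicate 3. Lcn2, the lipocalin gene, was the 1 of 9 neutrophil markers to pass (-1.13, adjusted p = 0.0204), lost without OE replicate 4 or WT replicate 1 or 4 (highest adjusted p 0.0665).

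Markers of the other cell types follow, beside 15.5% rising and 16.3% falling over all genes. Endothelial markers counted none up, 3 down (18.75%) and 13 not passing of 16. Their median was -0.14, or -0.0078 with scaling to library totals. The falls were Cd36, the water channel gene Aqp1 (-0.91) and the angiopoietin receptor gene Tek (-0.40). With lung and thymus terms 4 endothelial markers fell, where 7.18% of all genes did. The Tek call was lost without OE replicate 1, 3 or 4 or WT replicate 1, 2 or 4 (highest adjusted p 0.143). Schwann cell markers counted 2 down (18.2%) and 9 not passing of 11 (none with the terms). B cell markers counted 1 up (14.3%), Blk (0.91), and 6 not passing of 7. No member passed among 12 epicardial and mesothelial, 10 adipocyte, 13 skeletal muscle and 1 tested erythroid marker, nor among the 4 lung surfactant genes, whose levels ran over the 3 orders of magnitude given above within each genotype. Of 18 tested lung epithelial markers, Etv5 alone passed.

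Thymocyte and T cell genes followed the libraries with Rag1 reads. Of 11 tested thymocyte markers, 7 rose and 4 did not pass (median 1.44), and with the terms none passed. The 4 core genes did not reach the level filter. Lck, the kinase gene proximal to the T cell receptor, stood at 10.8, 7.67, 8.7 and 17.9 in WT and 133, 17.9, 218 and 113 in OE infarcted hearts, so that OE replicate 2 lay at the WT level and the other 3 far above it. Its log2 fold change was 2.93 (adjusted p = 0.00133), 3.67 without OE replicate 2, and 1.28 with the terms (adjusted p = 0.135). The coreceptor gene Cd8a had 139, 3.9, 272 and 90.7 in OE hearts and 4.82, 14.3, 8.7 and 7.37 in WT, with a log2 fold change of 2.80 and of -0.14 with the terms. The call was lost without any 1 of OE replicates 1, 3 and 4 and WT replicates 1, 3 and 4, and its value was 2.11 without OE replicate 3 and 4.04 without OE replicate 2. Mature T and NK cell markers counted 3 up (Cd3e, Cd4 and Cd8a) and 3 not passing of 6 tested, and all 3 are thymocyte markers too. The Cd3e call was lost without OE replicate 1, 3 or 4 or WT replicate 1 or 3, and the Cd4 call without OE replicate 1, 3 or 4 or WT replicate 1, 2 or 4 (highest adjusted p 0.111 and 0.127). Cd4 differed by 1.44, by 2.02 without OE replicate 2 and by -0.04 with the terms.

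The genotype difference in infarcted hearts largely ran parallel to that in sham hearts, which share no library with it. Both differences were tested in 1 fit with a shared estimate of each gene's spread, so passing in both is not independent. With the 8 infarcted libraries alone, 3336 genes passed in infarcted hearts. Of the 4554 genes, 4165 also passed in sham hearts with the same sign, where 7051 of all 14298 tested genes passed. Of the rest, 1 passed in sham hearts with the opposite sign and 388 did not pass. For none of these 388 did the difference between the 2 comparisons pass. The gene of opposite sign was Satb1, a chromatin organizer gene on the thymocyte list, at 0.59 in infarcted and -0.46 in sham hearts. It stood at 381, 356, 300 and 349 in WT and 621, 432, 654 and 421 in OE infarcted hearts. Its sham means were 450 in WT and 326 in OE hearts. For Satb1, too, the difference between the 2 comparisons did not pass. Its 2 highest OE infarcted hearts, replicates 1 and 3, also had the most Rag1 reads, though a relation was not tested. The interaction, the OE difference in infarcted minus that in sham hearts, passed for 12 genes (0.0839%), 11 (0.0769%) with a more negative and 1 (0.00699%) with a more positive difference after infarction, and 1416 genes had an unadjusted p below 0.05. Postn, Mmp2, Col3a1, Col5a2, Sparc, Fbln7, Ctsk, Pamr1 and Adamts12, which encode matrix proteins, proteases and related secreted proteins, had smaller rises in infarcted hearts. In infarcted hearts alone, the rise of Col3a1 (0.79) was lost without WT replicate 2 (adjusted p = 0.0531). Ret, Eno2 and Ankrd63 were the other 3 genes.

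Postn stood at 1331 ± 165 in sham and 5253 ± 1371 in infarcted hearts of the WT, and at 16699.6 ± 3336 in sham and 18184 ± 3025 in infarcted hearts of the OE (SD, n = 4 each). The infarcted WT hearts had the higher WT level and the OE levels were close, with an interaction of -1.81 (SE 0.27, adjusted p = 0.022). Mmp2 had the same order, with 1786 ± 182 and 4256 ± 907 in sham and infarcted WT hearts, 9356 ± 1322 and 9143 ± 738 in the OE hearts, and an interaction of -1.26 (SE 0.19, adjusted p = 0.022). The interaction calls depend on single libraries. Without 1 library the 12 became as few as 1 (without OE sham replicate 1 or 3) or as many as 52 (without WT infarcted replicate 2), no gene passed without the 4 libraries whose labels carry RA numbers 14 to 17, and DESeq2 called 149. The interaction of Postn lost its call without OE sham replicate 1, 2 or 3, WT sham replicate 2 or 4 or WT infarcted replicate 3, and that of Mmp2 without OE infarcted replicate 3, OE sham replicate 1 or 3 or WT sham replicate 2 or 4, and both had adjusted p = 0.0523 and 0.0515 with lung and thymus terms.

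**Figure D5:**
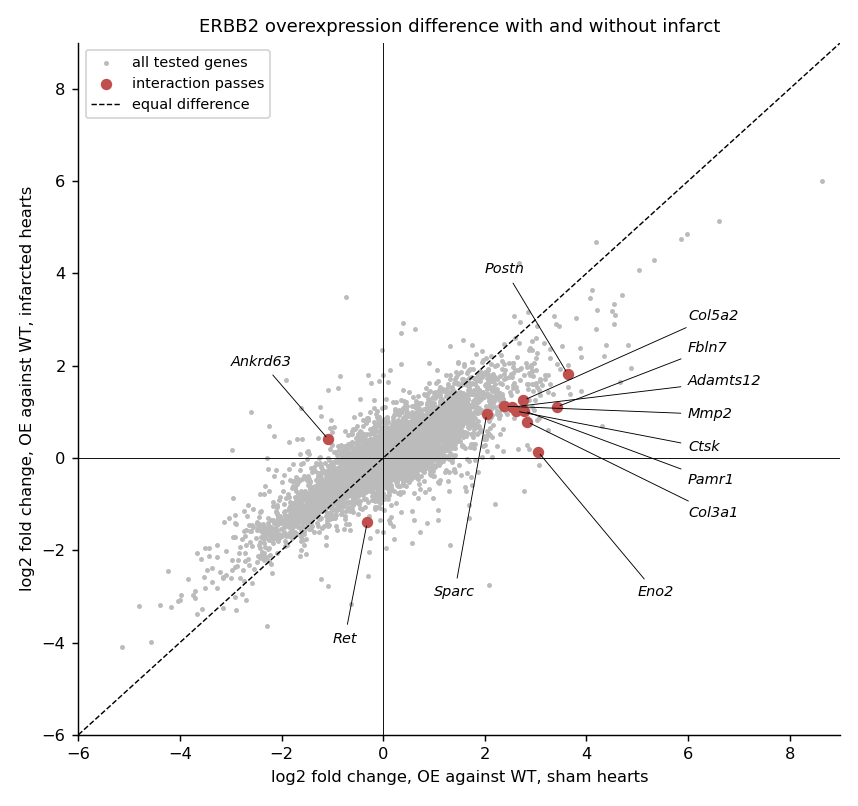
Log2 fold change OE against WT in sham (x axis) and infarcted hearts (y axis) for each tested gene in grey, with the 12 genes whose interaction passed in red and a dashed line of equal difference. The 9 genes of matrix proteins, proteases and related secreted proteins lay to the right of the line, at 2.04 to 3.63 in sham and 0.79 to 1.82 in infarcted hearts.

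For several lists the median in infarcted hearts was nearer to 0 than in sham hearts. Fibrillar matrix genes had a median of 1.06 in infarcted and 2.32 in sham hearts, with 34 of 34 genes differing less between the genotypes after infarction, as did 72.2% of all tested genes. EMT genes stood at 0.79 and 1.47, ERK targets at 0.86 and 1.39, and activated fibroblast markers at 0.61 (0.30 to 0.92 without 1 library, as given above) and 1.61. G2/M genes (1.55 and 1.62), oxidative phosphorylation genes (-0.79 and -0.84) and sarcomere genes (-0.37 and -0.37) were close. Over all 14298 tested genes, more passed in sham hearts, 7051 against 4554 in infarcted hearts. Inflammatory genes stood at 0.18 and 0.90, with 2 up in infarcted and 11 up in sham hearts. The infarcted median was -0.07 without OE replicate 1, -0.16 without WT replicate 2, 0.48 without WT replicate 3 and -0.14 with the terms, so its sign depends on single libraries. The difference between the list medians was not tested.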

How the data were processed

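Libraries were polyA RNA of whole hearts. Per the series' design text, single reads of 60 nt were trimmed with cutadapt, reads under 40 nt discarded and libraries subsampled, reads aligned to mm10 with TopHat 2.0.10, counted over RefSeq genes with HTSeq-count 0.6.1p1 and tested with DESeq2 1.6.3. The deposited per-sample signal is counts divided by 1 size factor per library, and 100% of positive values were whole multiples of each library's smallest step within a tolerance of 0.001. The recovered reads, 11939093 to 17468914 per library, gave CPM and the alternatives with DESeq2 1.42.0 and edgeR 4.0.16. Log2 fold changes and p-values deposited by the authors were used only for the count of genes their table calls. Genes were adjusted for multiple testing over all 14298 tested.

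limma 3.58.1 (R 4.3.3) with a trended variance was fitted to log2(value + 1) over all 16 libraries with 4 group means, two-sided, checked on simulated data. No set test was run. The animals of a group are separate per the labels. Lists numbered 42 (23 pathways, 19 cell types), with 677 of 728 genes tested, and some genes are on several lists. The members, lists, motifs and tests were chosen with earlier results of these data known. Genes named by rule, 96, were a panel of 36, the 8 largest rises and 8 largest falls that passed with and without lung and thymus terms, had groups that did not overlap and a mean of at least 100 in the higher group, and the member of each list with the smallest p in each direction. A further 58 genes were named after their values were seen. Promoter windows are RefSeq's. Python 3.11.15, pandas 2.3.3, scipy 1.17.1 and matplotlib 3.10.9 were used. Alternatives were other tools, scalings, filters and pseudocounts, marker terms, subsets of libraries, a replicate block and leaving out each replicate.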

Additional observations from a re-analysis of the deposited data

Results flagged for a closer look

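Among the named genes, some hearts stood apart from the other 3 of their group in normalized reads, by Dixon's test at the 95% level. Chance alone passes this test in about 1 of 20 groups, so over 154 named genes part of the hearts below would pass by chance. It sets a gap against the group's own range, so a small gap can pass where the other 3 lie close. Ryr2 is such a case, with WT infarcted replicate 2 at 21980 and the other WT infarcted hearts at 24168 to 24552. Spred1 is another, as its OE infarcted hearts spread little. OE infarcted replicate 1 was high in Eno2 (265). OE infarcted replicate 2 was high in Ifit2 (454) and Scara5 (535). OE infarcted replicate 3 was high in Loxl2 (5095), Mki67 (878) and Xirp2 (45856). OE infarcted replicate 4 was high in Spry4 (1010.4), Egr2 (1286), Egr3 (1441), Spred1 (1069), Ier2 (749) and Kcnip2 (692). WT infarcted replicate 1 was high in Lrrc15 (681), Mmp15 (2814) and Cenpf (769). WT infarcted replicate 3 was high in Eno3 (19523) and Cd4 (45.7). OE infarcted replicate 2 was low in Cyr61 (907). OE infarcted replicate 3 was low in Mmp2 (8039) and Cox7a1 (2345). WT infarcted replicate 2 was high in Gsn (48232). WT infarcted replicate 2 was low in Ryr2 (21980.0), Gdf15 (34) and Itgb5 (2349). OE infarcted replicate 4 had the highest Erbb2, was the OE infarcted heart with Ddx3y reads and held 184 Rag1 but no Sftpc reads, and the part of these in its high values was not tested. OE infarcted replicate 3 had the most Rag1 reads.

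The OE difference was not of the same size in infarcted and sham hearts for 12 genes, by the interaction in limma (log2, infarcted minus sham), namely Mmp2 (-1.26), Postn (-1.81), Ctsk (-1.60), Fbln7 (-2.31), Col3a1 (-2.05), Eno2 (-2.90), Pamr1 (-1.75), Adamts12 (-1.43), Ret (-1.08), Col5a2 (-1.51), Ankrd63 (1.48) and Sparc (-1.09). Their adjusted p ran from 0.0041 to 0.029, and several calls were lost when single libraries were left out, as given above for Postn and Mmp2.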

How the results depend on the processing

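The 4554 genes that passed were 4799 with DESeq2, 4574 with edgeR, 4592 with a pseudocount of 5, 4340 without a filter (of 19584 genes) and 3336 with the 8 infarcted libraries alone. Leaving out 1 infarcted library gave 3522 (without OE replicate 3) to 4955 genes (without OE replicate 2). Scaling to library totals gave 5406, of which 71.2% were higher against 48.7% in the deposited scaling, and moved the median of all genes from 0.01 to 0.14. With that scaling the medians of the mural (-0.01) and macrophage (-0.08) lists became 0.12 and 0.05, and Amotl2, Cxcl12, F3 and Tek lost their calls. Lung and thymus terms left 1757 genes, and 2971 and 2427 passed in hearts with at most or over 10 Sftpc reads. In alternatives chosen after the data were seen it was 1728 with the thymus term alone, 759 with the 4 WT hearts against OE replicate 2, and 2414 and 2300 in hearts with at most or over 100 Ddx3y reads. These subsets hold fewer libraries.

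Of the list genes 343 passed, 196 with lung and thymus terms, 192 with the thymus term alone, 119 against OE replicate 2, and 297 to 357 without 1 infarcted library. The interaction passed for 2 of the 96 rule-named genes, for 11 with DESeq2, 0 in RA 1 to 12 alone, 0 with the terms, 4 with the replicate block and 0 to 9 without 1 library, and the cause was not tested. Erbb2 passed in every alternative run. Of 154 named genes, 54 kept their direction but lost their call with the terms, and 86 against OE replicate 2. Directions turned for Ifit2, at -0.077 in hearts with at most 10 Sftpc reads, for Cd8a, at -0.91 against OE replicate 2, -0.14 with both terms and -0.12 with the thymus term alone, for Cd4, at -0.31, -0.041 and -0.030 in the same settings, and for Tcf7, at -0.24 against OE replicate 2.

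The labels give the groups the same replicate numbers. Same-numbered OE and WT infarcted hearts deviated together with r of 0.11, 0.04, -0.01 and -0.34, and 1 of 4 correlated best with its own number. So few correlations cannot exclude a shared factor. The main fit treated the hearts as unpaired. The replicate block gave 4336 genes.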
